A study of Mus musculus with 14 samples.

Results

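The genes described here are 38 genes of autophagy and mitophagy, the routes by which a cell encloses its own cytoplasm or mitochondria in membranes and digests them in lysosomes. They were chosen by name for their known roles, with earlier results of these data known, and are 38 of the 24359 genes used. All were measured in the tibialis anterior, the shin muscle that lifts the foot, of C57Bl/6 mice by sequencing of poly(A) RNA. Follistatin, a secreted protein, binds myostatin and activins, which restrain muscle growth. At day 3 there were 4 libraries of follistatin-treated muscle and 3 of control muscle. At day 7 there were 2 of each, and at day 14 there were 2 of follistatin-treated and 1 of control muscle. As in the study's design, days 7 and 14 were joined into a later set of 4 follistatin and 3 control libraries. The labels give neither the sex or age of the mice, nor the form and route of the treatment, nor what the control muscles received. The authors' deposited comparisons name the control MCS and the treatment FST, without further detail in the sources used here. The labels also do not say that replicates were separate animals, so each p-value measures only the spread between these libraries, which may be technical.

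In autophagy, a kinase complex built around Ulk1 starts the process. A lipid kinase complex around Pik3c3 and Becn1 then marks the membrane where the autophagosome grows, and lipid is brought to it by Atg2 and Atg9 proteins. A chain of enzymes attaches small proteins of the Atg8 family (the LC3 and GABARAP proteins) to this membrane, receptors tie cargo to them, and the closed autophagosome fuses with a lysosome. Muscle depends on this route to clear damaged mitochondria and protein aggregates, and its activity depends largely on modification of the proteins, which RNA levels do not show. The genes were grouped by these steps: 4 of initiation, 5 of nucleation, 5 of membrane supply, 10 of conjugation, 5 Atg8 genes, 5 receptors and 4 of the lysosome.

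Values are FPKM (a count of fragments divided by transcript length and by library size) as the authors scaled them, given per library or as mean ± SD over libraries. They summed to between 364513 and 532859 in a library, and the read depth behind them is unknown. Across genes, log2 values of replicates had correlations (Pearson's r) of 0.971 to 0.978. Fst, the gene of follistatin, was taken as a check of the treatment label and read 57.6 ± 8.16 FPKM in follistatin muscle of day 3 (n = 4) against 1.18 ± 0.212 FPKM in controls (n = 3). In the later set it read 366.7 to 1421 FPKM in follistatin libraries, against 0.808 to 1.17 FPKM in controls. Follistatin muscle averaged 387 ± 28.7 FPKM of Fst at day 7 and 1368 ± 75.3 FPKM at day 14 (SD, n = 2 each). Day and Fst level therefore cannot be told apart. The tissue label was checked with 8 muscle fibre markers. The authors' table marks some genes as too abundant to estimate, and their values can be listed at 0. This held for 2 of the 8 at day 3, and the other 6 together read 51528 to 58838 FPKM in follistatin libraries and 51611 to 56364 FPKM in controls. In the later set all 8 were so marked, and they give no level there. Of these, 4 (Acta1, Myh4, Myh1 and Tnnt3) were listed at 0 in every library. The listed values of the 8 summed to 13.5 to 59.0 FPKM in follistatin libraries and 35390 to 38731 FPKM in controls, so the loss was uneven between the groups. All 38 autophagy genes had a mean of at least 1 FPKM in both sets, so none was lost to the filter on low values.

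In control muscle of day 3 the levels of these genes ranged from the receptor Sqstm1 at 279 ± 10.6 FPKM to the protease Atg4c at 3.35 ± 0.417 FPKM (SD, n = 3). FPKM are per length, so genes can be compared. After Sqstm1 came the lysosomal membrane protein Lamp1 at 269 ± 9.40 FPKM, a difference smaller than the spread of the replicates. The Atg8 genes Map1lc3a, Gabarap and Map1lc3b followed at 135 ± 9.29, 119 ± 12.9 and 90.4 ± 3.91 FPKM, while Gabarapl2 and Gabarapl1 lay lower, at 34.9 ± 3.90 and 26.2 ± 2.48 FPKM. The kinase gene Ulk1 ranked 19th of 38 at 21.7 ± 1.53 FPKM. At the low end stood Pik3r4 at 5.11 ± 0.509, Atg2b at 4.21 ± 0.383, Atg14 at 4.12 ± 0.610 and Atg7 at 4.10 ± 0.610 FPKM. The last 3 of these lie within each other's SD.

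**Figure D1:**
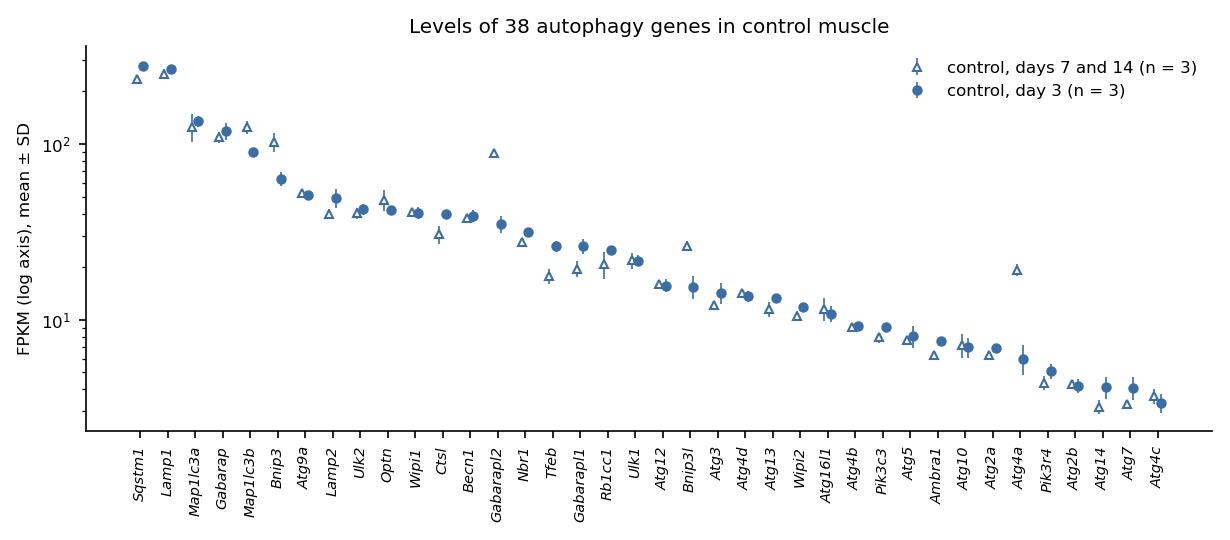
Levels of the 38 autophagy genes in control muscle, as mean FPKM on a log axis with SD bars (n = 3 each), with open triangles for days 7 and 14 and filled circles for day 3, ordered by the day 3 level. Sqstm1 and Lamp1 lie highest, at 279 and 269 FPKM at day 3, and the triangles of Gabarapl2 and Atg4a stand furthest above their circles.

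For most of these genes, controls of days 7 and 14 averaged within 1.5-fold of those of day 3, as the plot of levels shows. The median ratio was 0.941 over the 38 genes and 0.939 over 11063 genes. In 4 of the 38 (10.5%, against 4.53% of the 11063 genes) the later controls were at least 1.5-fold higher, and in 0 of the 38 (against 7.37%) at least 1.5-fold lower. Gabarapl2 read 88.8 ± 5.28 FPKM in later controls against 34.9 ± 3.90 FPKM in those of day 3, the mitophagy receptor Bnip3l 26.3 ± 1.82 against 15.4 ± 2.24 FPKM and its relative Bnip3 103 ± 13.2 against 63.5 ± 5.94 FPKM (SD, n = 3 each). The fourth was the row of Atg4a, with 19.2 ± 1.53 against 5.99 ± 1.13 FPKM, which cannot be assigned to that gene alone. The transcription factor gene Tfeb was lower in later controls, at 17.7 ± 1.82 against 26.2 ± 1.92 FPKM. Of the genes called below at days 7 and 14, Map1lc3b and Optn also lay wholly higher in later controls. Map1lc3b read 125 ± 11.0 against 90.4 ± 3.91 FPKM and Optn 48.3 ± 6.45 against 42.2 ± 2.43 FPKM. Pik3c3 lay wholly lower, and Ulk1 and Atg9a overlapped. The later libraries list 16158 to 20283 genes above 0 and those of day 3 list 15766 to 17161, so day and library cannot be told apart, and these levels were not tested.

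The authors' table places the row of Atg4a on chromosome 3, from 103575282 to 103646068, a locus that holds the copy Atg4a-ps (103643954 to 103646068, minus strand) and the gene Syt6. Atg4a itself lies on chromosome X, from 140956907 to 141164270 (GENCODE M21, mm10). The value in that row therefore cannot be assigned to Atg4a alone, and Atg4a is kept in the counts but given no further reading. The other 37 loci overlap their annotated genes.

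The promoter windows are shown for Ulk1 and Sqstm1, the genes called at day 3, and for Lamp1, whose window held the most E-boxes of the 31 genes with a promoter in the table. They run 5′ to 3′ along the gene from 250 bases before to 50 bases after the start, in RefSeq annotation of build GRCm38.p6, with motifs in capitals. Ulk1 is shown from chr5:110810032-110810331 on the minus strand, Sqstm1 from chr11:50210771-50211070 on the minus strand and Lamp1 from chr8:13158911-13159210 on the plus strand. Capitals mark GC boxes (GGGCGG read on both strands) in Ulk1 and Sqstm1, a TATAAA in Sqstm1 and E-boxes (CACGTG, its own reverse complement) in Lamp1.
Ulk1: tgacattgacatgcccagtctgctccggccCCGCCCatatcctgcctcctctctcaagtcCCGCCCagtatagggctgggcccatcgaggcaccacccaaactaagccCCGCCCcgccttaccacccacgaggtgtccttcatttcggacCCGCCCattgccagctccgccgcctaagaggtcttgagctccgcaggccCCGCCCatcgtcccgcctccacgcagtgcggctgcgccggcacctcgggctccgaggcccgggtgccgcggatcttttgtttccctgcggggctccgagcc
Sqstm1: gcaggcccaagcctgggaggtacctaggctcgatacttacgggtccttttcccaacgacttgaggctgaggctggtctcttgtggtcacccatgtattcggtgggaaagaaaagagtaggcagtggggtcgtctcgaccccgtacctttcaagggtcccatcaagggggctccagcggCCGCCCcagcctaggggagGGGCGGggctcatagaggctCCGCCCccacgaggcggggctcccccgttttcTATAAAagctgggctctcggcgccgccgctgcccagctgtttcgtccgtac
Lamp1: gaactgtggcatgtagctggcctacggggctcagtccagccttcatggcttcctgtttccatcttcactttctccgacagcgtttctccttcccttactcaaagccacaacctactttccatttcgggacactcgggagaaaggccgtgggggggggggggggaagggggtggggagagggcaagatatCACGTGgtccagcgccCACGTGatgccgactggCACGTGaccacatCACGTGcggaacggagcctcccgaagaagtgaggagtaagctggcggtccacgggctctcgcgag

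The Ulk1 window held 5 GC boxes and no TATAAA. That of Sqstm1 held 3 GC boxes, and its TATAAA lies next to the annotated start. Both lack CACGTG, the E-box bound by Tfeb and related factors, whereas the Lamp1 window held 4, all within 61 bases before the start. Of the 31 genes in the table, 7 had an E-box (22.6%, against 8.09% of 27025 genes with a promoter). The 7 were Atg14, Atg3, Atg5, Atg7, Bnip3, Ctsl and Lamp1. The longer element TCACGTGA, which contains the E-box, was found in Atg3 alone (3.23%, against 1.12% of genes). The forkhead motif GTAAACA (read on both strands), recognised by FoxO factors, was found in 0 of 31 against 4.05% of genes. GC boxes stood in 21 of 31 (67.7%, against 38.2%) and TATAAA (read on both strands) in 2 of 31, Atg4a and Sqstm1 (6.45%, against 15.7%). The GC box and TATAAA were added to the search after the windows had been read. These are matches of letters in a short window, not binding sites.

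At day 3, muscle treated with follistatin held less mRNA of Ulk1, the kinase that starts autophagy, and of Sqstm1, the receptor that carries ubiquitinated cargo. Ulk1 averaged 12.9 ± 0.303 FPKM in follistatin muscle and 21.7 ± 1.53 FPKM in controls, 40.3% lower, and Sqstm1 averaged 208 ± 7.79 and 279 ± 10.6 FPKM, 25.5% lower (SD, n = 4 and 3). These were 2 of the 38 genes (5.26%) by limma at an adjusted p under 0.05, in a comparison in which 0.568% of 11268 genes fell and 0.923% rose, 1.49% in all. None of the 38 rose. The median log2 change over the 38 was -0.07, while over all genes tested it was 0.01. Of the 38, 29 were below 0 (76.3%, against 47.4% of all genes tested).

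Ulk1 (chromosome 5, 110784488 to 110810097, minus strand) read 12.7, 13.0, 13.4 and 12.8 FPKM in the follistatin libraries and 23.4, 21.3 and 20.4 FPKM in the controls. The groups did not overlap, and the 4 follistatin libraries lay within 1 FPKM of each other. Its log2 change was -0.70 (SE 0.07, limma adjusted p = 0.0054), and the exact two-sided permutation p was 0.0286, the smallest that 35 splits of 7 libraries can give. Sqstm1 (chromosome 11, 50199366 to 50210827, minus strand) read 198, 210, 208 and 216 FPKM in follistatin muscle against 290, 269 and 278 FPKM in controls, again without overlap. Its log2 change was -0.42 (SE 0.06, limma adjusted p = 0.0133, exact permutation p = 0.0286). The call of Sqstm1 was lost when any of the 3 controls was left out (adjusted p up to 0.077 by limma), whereas Ulk1 was called without any 1 of the 7 libraries (adjusted p up to 0.0313). Sqstm1 shares 580 exon bases with Mrnip on the opposite strand, and the strand setting of the libraries is not given in the sources used here.

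Besides these, 4 genes had follistatin libraries wholly below the controls at day 3, making 6 of 38 (15.8%, against 6.8% of all genes tested), and 0 of 38 lay wholly above (against 8.31%). None of the 4 passed the test. Map1lc3b, the LC3 gene most used as a mark of autophagosomes, read 67.3, 69.7, 72.9 and 79.5 FPKM in follistatin muscle against 94.8, 87.4 and 89.0 FPKM in controls (log2 change -0.32, SE 0.07, limma adjusted p = 0.0879). Tfeb, the transcription factor of lysosomal genes, read 15.8, 19.1, 23.7 and 17.1 FPKM against 25.9, 24.5 and 28.3 FPKM (log2 change -0.46, SE 0.13, limma adjusted p = 0.15). Both groups of Tfeb came close, the highest follistatin library lying just under the lowest control. The GABARAP family gene Gabarapl1 averaged 20.7 ± 2.00 against 26.2 ± 2.48 FPKM and the lipid scramblase gene Atg9a 44.7 ± 3.57 against 51.6 ± 1.39 FPKM, with adjusted p of 0.181 and 0.259 by limma.

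By step, the day 3 log2 changes of the remaining genes lay between -0.20 and 0.37, and none passed the test. In initiation, Ulk2, Atg13 and Rb1cc1, the relative and the partners of Ulk1, had log2 changes of -0.12, -0.04 and -0.13. In nucleation no gene passed the test, and Becn1, which holds the Pik3c3 complex together, had the smallest p: it read 35.4, 36.3, 35.6 and 33.5 FPKM in follistatin muscle against 35.7, 41.6 and 40.1 FPKM in controls (log2 change -0.15, SE 0.07, limma adjusted p = 0.398). The membrane supply genes had a median log2 change of -0.15. The 10 conjugation genes were split evenly, with 5 above and 5 below 0 and a median of 0.01. The row of Atg4a (0.14) is among those above 0. Atg10, the enzyme that joins Atg12 to Atg5, was the conjugation gene with the smallest p, at 9.998, 11.3, 8.51 and 7.44 FPKM in follistatin muscle against 5.93, 7.17 and 7.73 FPKM in controls, and these groups overlap (log2 change 0.37, SE 0.15, limma adjusted p = 0.274). Of the Atg8 genes not given above, Gabarap, Gabarapl2 and Map1lc3a had log2 changes of -0.19, -0.15 and 0.07. Among receptors, Nbr1, Optn, Bnip3 and Bnip3l lay between -0.02 and -0.10. In the lysosome group, Lamp1, Lamp2 and the protease gene Ctsl had log2 changes of -0.11, -0.02 and 0.03.

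**Figure D2:**
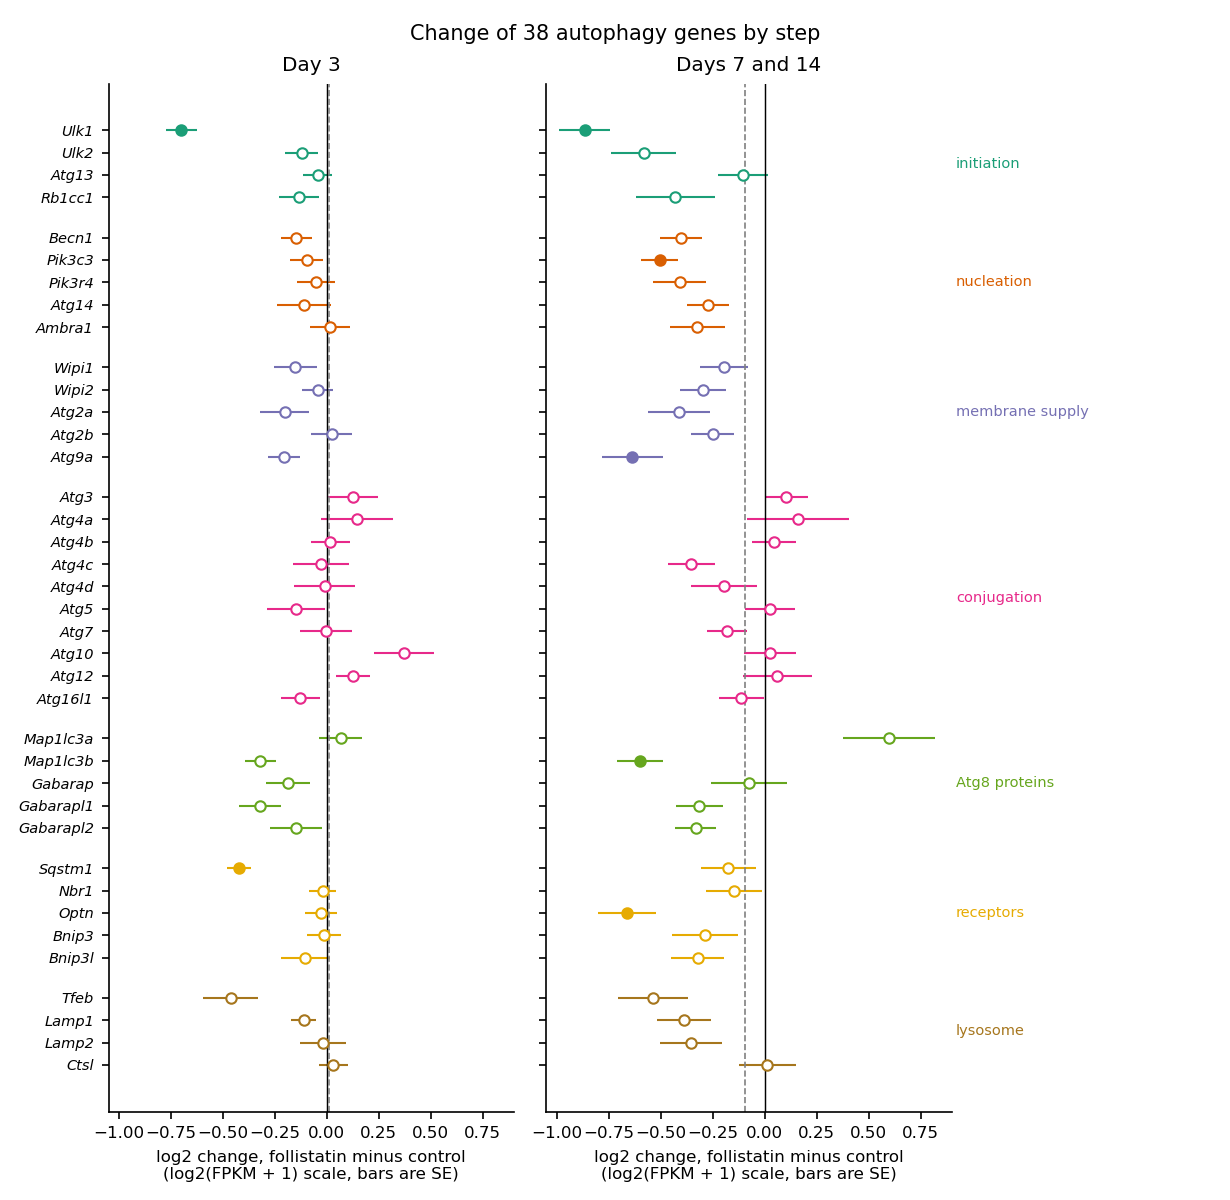
Log2 change of follistatin minus control (horizontal axis, log2(FPKM + 1) scale) for each of the 38 genes by step, at day 3 (left, 4 and 3 libraries) and at days 7 and 14 (right, 4 and 3 libraries). Bars are SE, filled points passed limma at an adjusted p under 0.05 and dashed lines mark the median of all genes tested, 0.01 and -0.09. Ulk1 is the point furthest to the left in both panels, at -0.70 and -0.86, while the conjugation genes cluster around 0.

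At days 7 and 14, 5 of the 38 genes fell and none rose. The 5 were Ulk1, the lipid kinase gene Pik3c3, Atg9a, Map1lc3b and the mitophagy receptor gene Optn, that is 1 gene each of initiation, nucleation, membrane supply, the Atg8 family and the receptors. Their follistatin means were 33.3% to 47.1% below the control means. The share of 13.2% compares with 3.27% of 11047 genes that fell and 2.24% that rose in this comparison, 5.5% in all. The median log2 change of the 38 was -0.29, and that of all genes tested was -0.09. Of the 38, 30 were below 0 (78.9%, against 60.8% of all genes tested).

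Ulk1 read 12.5 and 12.4 FPKM in the follistatin libraries of day 7 and 11.6 and 9.62 FPKM in those of day 14, against 24.1 and 21.6 FPKM in controls of day 7 and 19.7 FPKM in that of day 14. Every follistatin library lay below every control (log2 change -0.86, SE 0.12, limma adjusted p = 0.0129, exact permutation p = 0.0286). Pik3c3, the catalytic subunit of the nucleation complex (chromosome 18, 30272747 to 30348126, plus strand), read 5.19, 5.65, 5.16 and 5.11 FPKM against 8.52, 7.60 and 7.62 FPKM (log2 change -0.51, SE 0.09, limma adjusted p = 0.0228). At day 3 the same gene had stood at 8.42 ± 0.470 FPKM in follistatin muscle and 9.07 ± 0.414 FPKM in controls. Its follistatin libraries of days 7 and 14 thus lay below all 10 others.

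Atg9a (chromosome 1, 75180860 to 75192196, minus strand) read 40.0 and 36.4 FPKM in day 7 follistatin muscle and 33.2 and 26.3 FPKM in day 14 follistatin muscle, against 51.9, 51.7 and 54.8 FPKM in controls. The groups were well apart, but the follistatin libraries spread more than the controls (log2 change -0.64, SE 0.15, limma adjusted p = 0.048). Of its exon bases, 1832 are shared with Gm29253 on the same strand, so reads of these cannot be told apart. Optn (chromosome 2, 5020642 to 5064051, minus strand), which binds ubiquitin on damaged mitochondria, read 34.2, 31.5, 29.5 and 25.2 FPKM in follistatin muscle against 55.7, 44.2 and 44.9 FPKM in controls (log2 change -0.66, SE 0.14, limma adjusted p = 0.0384). At day 3, by contrast, Optn averaged 41.4 ± 2.81 FPKM in follistatin muscle and 42.2 ± 2.43 FPKM in controls, a difference within the spread.

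Of the 5 Atg8 genes, 1 fell (20%, against 3.27% of all genes tested), and 4 had log2 changes below 0 (80%, against 60.8%). Map1lc3b (chromosome 8, 121590361 to 121598760, plus strand) read 82.0, 75.7, 80.6 and 90.2 FPKM in follistatin muscle of days 7 and 14 against 130, 112 and 132 FPKM in controls (log2 change -0.60, SE 0.11, limma adjusted p = 0.0281). Map1lc3a, the other main LC3 gene, chosen here after its values were seen, read 236, 165, 139 and 229 FPKM in follistatin muscle against 143, 133 and 99.9 FPKM in controls. That was the largest log2 change above 0 among the 38 (0.60, SE 0.22), but the groups overlap and it did not pass (limma adjusted p = 0.13). Gabarapl2 averaged 70.3 ± 3.32 and 88.8 ± 5.28 FPKM and Gabarapl1 15.5 ± 1.34 and 19.5 ± 2.00 FPKM, each without overlap and with adjusted p of 0.0837 and 0.121 by limma. Gabarap averaged 106 ± 26.1 against 109 ± 7.43 FPKM.

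As a description chosen after the values were seen, the ratio of Map1lc3a to Map1lc3b was 1.76 to 2.25 in the 4 follistatin libraries of day 3 and 1.33 to 1.65 in the 3 controls. In the later set it was 1.72 to 2.88 in follistatin muscle and 0.754 to 1.18 in controls, so the groups did not overlap in either set. The ratio was not tested.

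**Figure D3:**
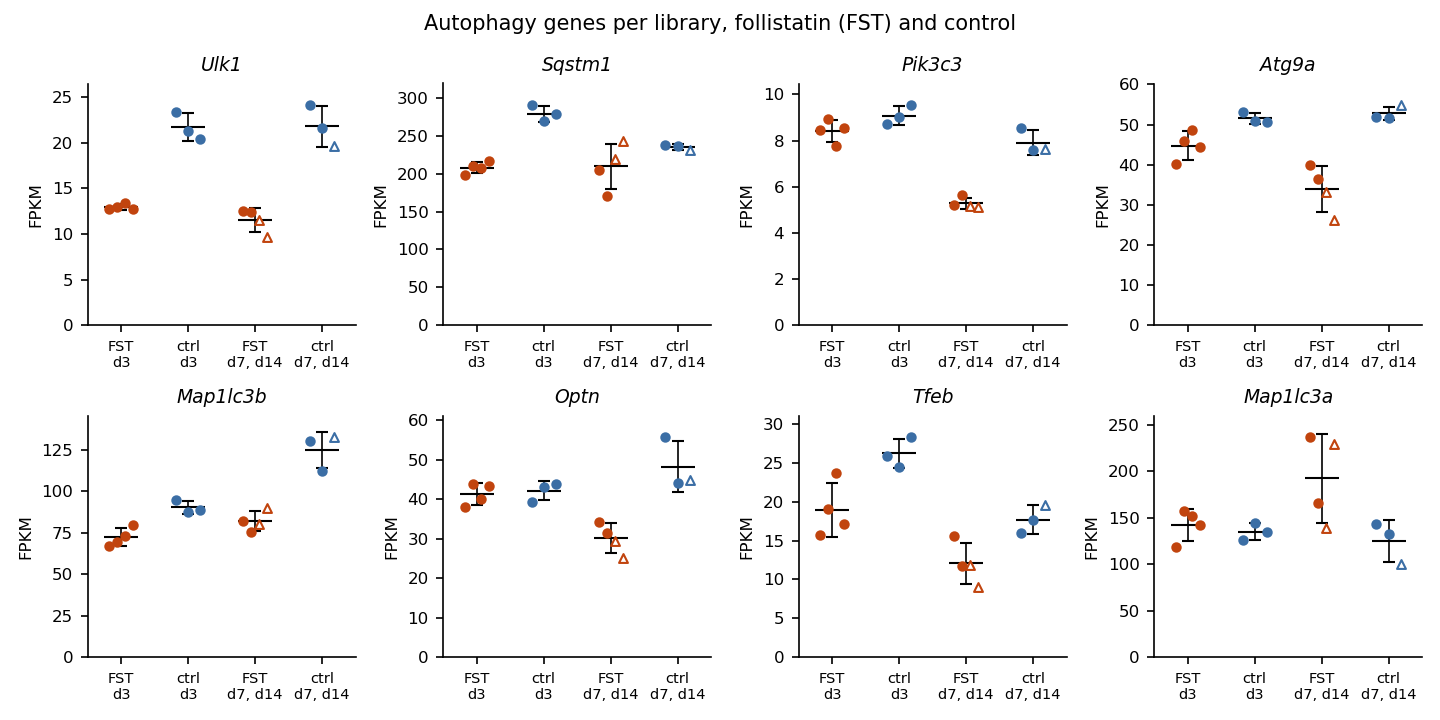
FPKM in each library (vertical axes, from 0) of 8 autophagy genes, with follistatin (FST, orange) left of control (ctrl, blue) for day 3 (d3) and for days 7 and 14 (filled circles day 7, open triangles day 14); black lines are mean ± SD. The groups of Ulk1, Atg9a, Map1lc3b and Tfeb do not overlap in either set. Those of Pik3c3 and Optn overlap at day 3 and not later, and those of Sqstm1 later and not at day 3. Map1lc3a has its highest values, 236 and 229 FPKM, in later follistatin libraries.

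The follistatin libraries lay wholly below the controls in 20 of the 38 genes at days 7 and 14 (52.6%, against 21.5% of all genes tested) and wholly above in 0 (against 8.96%). All 5 nucleation genes were among the 20. Next to Pik3c3 these were Becn1 at 28.7 ± 2.35 against 38.2 ± 0.952 FPKM (log2 change -0.40, SE 0.10, limma adjusted p = 0.0587), its kinase partner Pik3r4 at 3.05 ± 0.511 against 4.36 ± 0.387 FPKM, Atg14 at 2.47 ± 0.157 against 3.19 ± 0.288 FPKM and Ambra1 at 4.90 ± 0.869 against 6.33 ± 0.231 FPKM. None of these 4 passed the test, and Becn1 shares 3104 exon bases with Cntd1 on the opposite strand. In initiation Ulk2 averaged 27.0 ± 5.12 FPKM in follistatin muscle and 40.4 ± 2.83 FPKM in controls, without overlap (log2 change -0.58, SE 0.16, limma adjusted p = 0.0695). The membrane supply genes Wipi2, Atg2a and Atg2b also lay wholly below, with log2 changes of -0.30, -0.41 and -0.25.

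The conjugation genes lay closer to 0, with 6 of 10 above it and a median log2 change of 0.03, where the 5 nucleation genes had log2 changes of -0.27 to -0.51. The 6 include the row of Atg4a (0.16). Atg3, Atg4b, Atg5, Atg10 and Atg12 all had log2 changes between 0.02 and 0.10. Atg4c, a protease that trims Atg8 proteins, had the smallest p of the step, at 2.49, 3.18, 2.50 and 2.49 FPKM in follistatin muscle against 3.81, 3.93 and 3.28 FPKM in controls. Its groups did not overlap (log2 change -0.35, SE 0.11, limma adjusted p = 0.0967). Atg7, the enzyme that activates both conjugation routes, averaged 2.81 ± 0.253 against 3.31 ± 0.0783 FPKM. A difference between the steps was not tested.

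Among receptors other than Optn, Sqstm1 read 205, 171, 220 and 243 FPKM in follistatin muscle against 237, 237 and 231 FPKM in controls. The groups overlap, and it was not called at days 7 and 14 (log2 change -0.17, SE 0.13, limma adjusted p = 0.405). Its follistatin means were alike in the sets, at 208 ± 7.79 FPKM at day 3 and 210 ± 30.0 FPKM later. Its later controls lay wholly lower than those of day 3, at 235 ± 3.58 against 279 ± 10.6 FPKM, a difference that was not tested. Bnip3 and Bnip3l, which sit in the outer mitochondrial membrane, averaged 84.7 ± 14.9 against 103 ± 13.2 FPKM and 21.0 ± 2.84 against 26.3 ± 1.82 FPKM at days 7 and 14. In the lysosome group Tfeb read 15.6, 11.7, 11.9 and 9.09 FPKM against 15.9, 17.7 and 19.6 FPKM, wholly below by a narrow margin (log2 change -0.54, SE 0.17, limma adjusted p = 0.093). Lamp1 averaged 192 ± 25.8 against 251 ± 15.8 FPKM, and Ctsl 30.9 ± 4.12 against 30.6 ± 3.501 FPKM, neither passing the test.

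The calls at days 7 and 14 rest on few libraries. Leaving out any single control, of day 7 or of day 14, left 0 of the 38 genes called, and without follistatin day 7 replicate 2 or day 14 replicate 1 there were 2 and 1. In the libraries of day 7 alone (2 against 2) the log2 changes of the 5 genes were -0.82 for Ulk1, -0.50 for Pik3c3, -0.43 for Atg9a, -0.61 for Map1lc3b and -0.58 for Optn, and none was called (limma adjusted p of 0.147 to 0.274), while day 14 has 1 control and gives no test of its own.

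The summed FPKM of the follistatin libraries of days 7 and 14 was 364513 to 433552, against 485755 to 510584 in the controls, and without the genes marked as too abundant it was 329853 to 390167 against 347937 to 377544, where the groups overlap. Rescaling each library by its median ratio moved the median of all genes by 0.09, to 0.00. The median log2 change of the 38 was then -0.19, and 2 genes, Pik3c3 and Ulk1, were called. With quantile normalization it was -0.22.

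Per library, the median over the 38 genes of the log2 value minus the control mean was -0.31 and -0.26 in the follistatin libraries of day 7 and -0.28 in both of day 14, with 29 to 35 genes below 0. In the controls of these days it was between -0.04 and 0.06, with 5, 29 and 28 genes below 0, so these counts overlap between the groups. Each control is part of the control mean, which holds the control medians near 0. At day 3 the median was -0.09 to -0.04 in follistatin libraries and -0.02 to 0.03 in controls.

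The difference of the follistatin effects between the sets (days 7 and 14 minus day 3) was tested as a set-by-treatment interaction with the 14 libraries in 1 fit. It was called in 0 of the 38 genes and in 0.0884% of 11306 genes by limma (0.0265% below 0 and 0.0619% above 0), while at an unadjusted p under 0.05 it was below 0 in 7 of the 38 (18.4%, against 11.9% of all genes) and above 0 in 0 (against 2.99%). The smallest adjusted p were those of Optn (difference of log2 changes -0.63, adjusted p = 0.153) and Pik3c3 (-0.41, adjusted p = 0.161). For Ulk1 the difference was -0.17 (adjusted p = 0.583), and for Sqstm1 it was 0.25 (adjusted p = 0.422). That Pik3c3, Atg9a, Map1lc3b and Optn were called at days 7 and 14 and not at day 3 is therefore not shown to be a difference between the sets. The log2 change was below 0 in both sets in 28 of the 38 genes, a count whose share over all genes was not computed. It was lower at days 7 and 14 than at day 3 in 30 (78.9%, against 64.2% of all genes). Median ratio rescaling moved the median difference of all genes by 0.11, to 0.00, and left the median of the 38 at -0.07 with 23 below 0, against -0.18 and 30 without it.

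The authors' deposited table, made with Cuffdiff, calls more of these genes at a q-value under 0.05. At day 3 the authors' deposited table has 5 of the 38 lower (Gabarapl1, Map1lc3b, Sqstm1, Tfeb and Ulk1; 3.19% of 9625 genes are lower in it) and 0 higher (3.06%). Both genes called by limma are among the 5. At days 7 and 14 the authors' deposited table has 10 lower (11.2% of 12664 genes) and 1 higher (6.64%). The 10 are the 5 called by limma with Atg2a, Pik3r4, Rb1cc1, Tfeb and Ulk2, and the 1 is Map1lc3a (q = 0.00882 in the authors' deposited table).

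Other genes of the pathway were read from 6 further lists. Of 16 other mitophagy and selective autophagy receptors tested, none was called at day 3 and 2 fell at days 7 and 14 (12.5%, against 3.27% of all genes tested). Pink1, the kinase that marks damaged mitochondria, read 209, 143, 136 and 158 FPKM in follistatin muscle of days 7 and 14 against 343, 302 and 377 FPKM in controls (log2 change -1.08, SE 0.17, limma adjusted p = 0.0164). Fam134b, a receptor for autophagy of the endoplasmic reticulum (now named Retreg1), read 24.7, 26.7, 34.1 and 34.8 FPKM against 80.7, 53.3 and 59.9 FPKM (log2 change -1.07, SE 0.18, limma adjusted p = 0.022). Both had follistatin libraries wholly below the controls, with means 52.5% and 53.5% lower. At day 3 they were the genes of the list with the smallest p and were also wholly below, at 301.5 ± 32.5 against 375 ± 19.99 FPKM and 60.1 ± 5.07 against 76.9 ± 1.64 FPKM, with adjusted p of 0.163 and 0.0747 by limma. The median log2 change of the list was -0.06 at day 3 and -0.16 later.

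Among 21 regulators of autophagy tested, none was called at day 3 and 1 fell at days 7 and 14 (4.76%, against 3.27% of all genes tested). This was Foxo4, a FoxO transcription factor, at 35.4, 28.1, 24.6 and 22.3 FPKM in follistatin muscle against 63.8, 54.7 and 63.8 FPKM in controls, 54.6% lower (log2 change -1.13, SE 0.16, limma adjusted p = 0.0131). Zkscan3, a repressor of lysosomal genes, averaged 6.08 ± 0.354 against 8.25 ± 0.635 FPKM (limma adjusted p = 0.0521). The median log2 change of these 21 at days 7 and 14 was -0.38, with 19 below 0 (90.5%, against 60.8% of all genes tested). At day 3 the mTOR inhibitor Deptor averaged 25.5 ± 3.49 FPKM in follistatin muscle and 16.8 ± 1.28 FPKM in controls (log2 change 0.57, limma adjusted p = 0.0538), and Akt1s1, another inhibitor of mTOR, averaged 29.0 ± 3.24 and 39.6 ± 3.12 FPKM (limma adjusted p = 0.0857). Foxo4 averaged 51.8 ± 4.33 and 63.4 ± 5.72 FPKM at day 3, also wholly below the controls (limma adjusted p = 0.187).

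Of 30 genes of lysosomal enzymes and membrane proteins, 1 fell at day 3 (3.33%, against 0.568% of all genes tested) and 4 at days 7 and 14 (13.3%, against 3.27%), none rose, and the median log2 change was 0.02 and -0.05. The protease gene Ctsd read 292, 311, 322 and 298 FPKM in follistatin muscle of day 3 against 413, 403 and 402 FPKM in controls, without overlap (log2 change -0.41, SE 0.06, limma adjusted p = 0.0133, and up to 0.0802 without a control). In the later set the cholesterol exporter Npc1 averaged 10.2 ± 1.39 FPKM in follistatin muscle and 19.0 ± 1.29 FPKM in controls (log2 change -0.85, SE 0.12, limma adjusted p = 0.0129). The calcium channel gene Mcoln1 averaged 8.63 ± 0.126 and 12.8 ± 0.179 FPKM, with replicates very close together (log2 change -0.52, SE 0.08, limma adjusted p = 0.016). Ctsd and the protease gene Tpp1 were the other calls, both named after their values were seen, at 269 ± 18.5 against 365 ± 14.5 FPKM (limma adjusted p = 0.0463) and 18.3 ± 1.63 against 25.9 ± 1.24 FPKM (limma adjusted p = 0.0418). Ctsd shares 808 exon bases with Gm49369 on the same strand. Gaa, the glycogen-degrading enzyme, averaged 56.7 ± 6.05 against 72.4 ± 4.19 FPKM at day 3 (limma adjusted p = 0.12). Mcoln1 averaged 12.4 ± 0.641 against 14.6 ± 0.725 FPKM at day 3, also without overlap (limma adjusted p = 0.216).

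The 16 subunits of the vacuolar ATPase, the pump that acidifies lysosomes, had 0 calls in both sets and medians of 0.01 and 0.05. At an unadjusted p under 0.05, 0 of the 16 differed at day 3 (against 15.2% of all genes tested) and 1 at days 7 and 14 (6.25%, against 28.3%). This was Atp6v1g1, which averaged 199 ± 42.2 FPKM in follistatin muscle and 123 ± 3.36 FPKM in controls (log2 change 0.66, SE 0.16, limma adjusted p = 0.0521). Atp6v0e averaged 29.5 ± 11.0 against 20.7 ± 0.543 FPKM in that set. At day 3 its values were 20.6 ± 3.22 and 24.4 ± 2.01 FPKM, and those of Atp6ap1 70.6 ± 5.07 and 63.0 ± 4.02 FPKM, with adjusted p of 0.398 and 0.386 by limma.

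Of 14 genes of autophagosome fusion, 1 rose at day 3 (7.14%, against 0.923% of all genes tested) and 0 were called later. Rab7, the GTPase of late endosomes, read 124, 126, 123 and 124 FPKM in follistatin muscle of day 3 against 92.97, 101 and 101 FPKM in controls (log2 change 0.34, SE 0.06, limma adjusted p = 0.0285). Later it averaged 101 ± 22.4 against 111 ± 5.70 FPKM. The call at day 3 was lost without any 1 of the 7 libraries (adjusted p of 0.0635 to 0.125 by limma). Plekhm1, an adaptor of Rab7, averaged 4.80 ± 0.228 against 5.92 ± 0.401 FPKM at day 3, and the tethering genes Epg5 and Vps33a averaged 4.34 ± 0.982 against 6.78 ± 0.505 FPKM and 11.8 ± 1.73 against 15.7 ± 0.398 FPKM at days 7 and 14, with adjusted p of 0.214, 0.0723 and 0.0942 by limma.

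Of 11 other core genes tested, 0 were called at day 3 and 1 fell at days 7 and 14 (9.09%, against 3.27% of all genes tested). This was Wdr45, a relative of Wipi1 and Wipi2, at 11.9, 9.30, 9.35 and 14.2 FPKM in follistatin muscle against 20.2, 17.1 and 19.7 FPKM in controls (log2 change -0.73, SE 0.16, limma adjusted p = 0.0412). Of its exon bases, 818 are shared with Gm45208 on the same strand. Tmem41b, a lipid scramblase of the endoplasmic reticulum, averaged 13.0 ± 2.18 against 9.56 ± 0.257 FPKM in that set (limma adjusted p = 0.115). At day 3 Atg16l2 averaged 1.60 ± 0.333 against 2.34 ± 0.216 FPKM and Vmp1 25.3 ± 1.58 against 21.5 ± 2.21 FPKM, with adjusted p of 0.266 and 0.273 by limma. Of the 9 genes that these lists called in either set, those of days 7 and 14 (Foxo4, Pink1, Fam134b, Npc1, Mcoln1, Wdr45, Ctsd and Tpp1) were each lost without control day 7 replicate 1 and without control day 14 replicate 1.

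**Figure D4:**
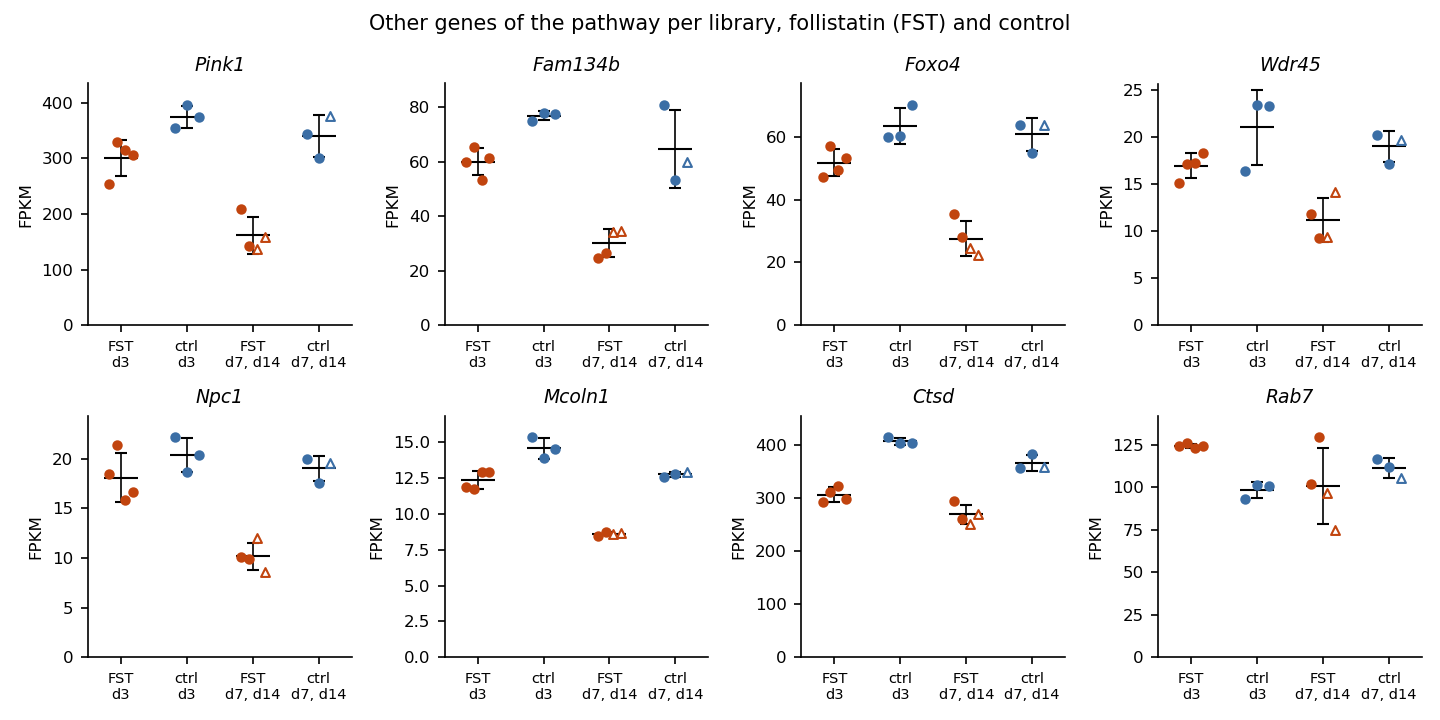
FPKM in each library (vertical axes, from 0) of 8 other genes of the pathway, with follistatin (FST, orange) left of control (ctrl, blue) for day 3 (d3) and for days 7 and 14 (filled circles day 7, open triangles day 14); black lines are mean ± SD. Pink1, Fam134b, Foxo4, Wdr45, Npc1 and Mcoln1 were called lower with follistatin at days 7 and 14, and Ctsd in both sets. At day 3 Pink1, Fam134b, Foxo4 and Mcoln1 also lay wholly below the controls, without being called. Rab7 is higher at day 3, where its 4 follistatin libraries read 123 to 126 FPKM.

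Markers of other cells also moved with the treatment, and their part in these results was not tested. At day 3 the sum of 6 endothelial markers was 88.2 to 104 FPKM in follistatin muscle against 112 to 118 FPKM in controls, and that of 5 smooth muscle and pericyte markers 173 to 216 against 214 to 239 FPKM. In the later set the endothelial sum was 62.2 to 103 against 113 to 156 FPKM, the smooth muscle sum 35.9 to 91.9 against 115 to 159 FPKM, and the sum of 5 Schwann cell markers 19.4 to 35.1 against 40.5 to 90.2 FPKM, so these groups did not overlap. Single genes passed the test in 1 case, an endothelial marker that fell at days 7 and 14. The sums of 8 macrophage markers overlapped, at 55.6 to 114 against 65.0 to 90.7 FPKM at day 3 and 35.1 to 93.5 against 21.8 to 50.3 FPKM later, as did those of 6 fibroblast markers, at 420 to 551 against 428 to 580 FPKM and 294 to 543 against 313 to 571 FPKM. None of these markers was at 0 in every library. In RNA of a whole muscle, fewer cells of a type and less RNA of a gene per cell cannot be told apart.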

How the data were processed

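Poly(A) RNA of 14 tibialis anterior libraries was made with an Illumina TruSeq kit, per the labels' protocols. The authors used TopHat and Cuffdiff on build mm10, per the submitters' processing notes; versions, annotation and strand setting are not given in the sources used here. Gene values were deposited as FPKM, 1 per library. The authors' deposited tables of Cuffdiff comparisons hold log2 fold changes, a test score, p-values and q-values.

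Of 24386 listed genes, 27 whose symbols had become dates were left out, as were, from the tests, genes marked as too abundant to estimate (4 at day 3, 31 at days 7 and 14). Genes averaging 1 FPKM or more in a set were tested on log2(FPKM + 1), which understates the change of genes with low values. The model was limma 3.58.1 (lmFit and trended eBayes, R 4.3.3), with a separate fit per set. Tests were two-sided, with Benjamini-Hochberg adjustment over all genes tested, and calls were made at an adjusted p under 0.05. The difference between the sets was an interaction over 14 libraries. The pipeline was tested on simulated data.

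The depth of reads is unknown. Where steps between low values fix it (79.3% to 83.9% of low values on steps within 0.02 log2), day 3 libraries had 0.683 to 1.28 times the depth of control day 3 replicate 1. In later libraries only 54.7% to 62.9% of low values lay on steps and depth was not taken from them.

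The genes, the further lists and the alternatives were chosen with earlier results of these data known. Given in full are the genes called in either set, the gene of smallest p in each step and set, and the 2 genes of smallest p in each further list and set. Alternatives were a pseudocount of 0.1, other filters on low values, 2 other scalings, robust eBayes, other gene sets, a replicate block, all libraries in 1 fit, day terms, a 1.5-fold limit, the authors' q-values and leaving out each library. Positions are from GENCODE M21, promoters from RefSeq on GRCm38.p6. Protein comparisons were not made here.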

Additional observations from a re-analysis of the deposited data

Results flagged for a closer look

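In 7 of 76 groups of 4 follistatin libraries, 1 per gene and set, a single library stood far from the other 3, and chance alone flags about 1 group in 20. At day 3 these were Pik3r4 at 5.18 FPKM in follistatin replicate 1, and Atg2a at 7.41 FPKM and Lamp2 at 41.0 FPKM in follistatin replicate 3. At day 7 they were Pik3c3 at 5.65 FPKM, Atg4c at 3.18 FPKM and Atg10 at 8.49 FPKM, all in follistatin replicate 2. At day 14 it was Wipi1 at 42.5 FPKM in follistatin replicate 1. Pik3c3 is the only gene called by limma among them, and this library, its highest with follistatin, still lay below every control.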

How the results depend on the processing

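The log2 changes of the genes given in full and of Fst, 48 in all, were followed through the refits. None of the 48 changed sign, but the balance of higher and lower calls over all genes did turn. Other genes were not followed singly, and some changed sign. At day 3, 29 of the 38 were below 0, and 31 with quantile normalization. Ctsl at day 3 had a log2 change of 0.03 here and -0.0023 in the authors' deposited table. At day 3, the autophagy genes called lower numbered 2, and 0 with the replicate block, 1 with all 14 libraries in 1 fit, 1 with a limit of 1.5-fold and 5 by the authors' q-values. Over all genes the 168 calls became 266 without small RNA genes, 19 with the block, 100 with the limit and 602 by the authors' q-values. At days 7 and 14, the 5 called lower became 2 with no filter on low values, 2 with median ratio rescaling, 1 with the block, 11 with all 14 libraries in 1 fit, 0 with day 7 alone and 10 by the authors' q-values. The 0 called higher became 1 (Map1lc3a) with all 14 libraries and 1 by the authors' q-values. Over all genes the 608 calls became 284 with no filter, 964 without small RNA genes, 164 with the block, 2071 with all 14 libraries, 30 with day 7 alone and 2259 by the authors' q-values. For the difference of the effects, 10 calls became 2 with no filter, 6 with median ratio rescaling, 24 with the genes marked as too abundant and 3 with the block. The share of higher genes among these calls was 70.0%, and 100% with no filter or median ratio rescaling, 37.5% with the genes marked as too abundant and 0% with the block. The share of higher genes among calls at days 7 and 14 was 40.6%, and 61.9% with median ratio rescaling and 55.9% with quantile normalization. Without 1 library at a time, the autophagy genes called lower numbered 1 to 2 at day 3 and 0 to 6 later, and all genes called 39 to 165, 43 to 907 and, for the difference, 2 to 32. The causes were not tested.

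Over all refits of these 48 log2 changes, 763 values kept their direction and side of the threshold, 110 no longer passed and 21 newly passed. Whether replicate numbers pair the libraries could not be decided. Deviations from group means correlated at -0.057 to -0.032 for same-numbered libraries of day 3, and at -0.050 to 0.090 for other numbers. With 2 libraries per group at day 7, the 0.017 of same numbers fixes -0.017 for other numbers. Means of so few libraries make these values a weak check. With the replicate block the log2 change of Ulk1 was -0.69 at day 3 (adjusted p = 0.112 by limma), against -0.70 without it, and -0.79 later (adjusted p = 0.0482), against -0.86. With no read depth, changes in genes of few FPKM cannot be separated from counting error.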
